A study of Mus musculus with 4 samples.

Results

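Genes of mitosis and of the G2/M transition were read in RNA from the mouse pharyngeal arch that forms the jaws. The set was 36 genes chosen by symbol for their known part in mitosis, and all 36 reached the minimum mean of 10 normalized reads, out of 52459 genes listed and 16746 tested. The lowest mean among them was that of Cdc25b, and none lay near the minimum. Tissue came from the PA1, the arch also called the branchial arch of the jaw, at E9.5 to E9.75, when embryos had 25 to 27 somites. There were 2 libraries of wild-type embryos and 2 of Wnt1-Cre;pMes-Bmp4 embryos, called transgenic below. In the latter the Cre recombinase, driven by the Wnt1 promoter in the neural crest lineage, acts on a transgene that carries Bmp4. No group held either transgene alone, and the labels give no strain, sex or litter and do not say whether arches were pooled. They also do not say that libraries of a group came from separate embryos, so p-values measure only the spread between these libraries, which may be technical.

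A cell enters mitosis when cyclin B bound to CDK1 is switched on by CDC25 phosphatases, with PLK1 and the Aurora kinases acting beside it. Microtubules then attach to kinetochores, the spindle checkpoint holds the cell until every chromosome is attached, and the anaphase-promoting complex with CDC20 marks securin and cyclin B for destruction. Most of these genes are transcribed in a wave late in the cycle, under MuvB with B-Myb and FoxM1, and are kept low in resting cells by the DREAM complex. In cycling cells their RNA is known to be highest in G2 and M. In RNA of a whole arch, fewer cells of a type and less RNA per cell cannot be told apart.

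Most of the 36 mitosis genes did not pass the test between genotypes, and those that did were mainly higher in the transgenic arch. By limma, with Benjamini-Hochberg adjustment over all genes and a threshold of 0.05, 7 of 36 rose, 1 fell and the other 28 missed the threshold. Over all genes tested 2.97% passed as higher and 5.28% as lower. The 7 were Ccnb1, Ccnb2, Aurka, Bub3, Spc25, Nusap1 and Kif20a, with log2 fold changes from 0.53 to 0.94, and the 1 that fell was the proliferation marker Mki67 at -0.73. After a correction for transcript length, described further on, Kif20a alone passed. Fold changes, also called log2 differences, are transgenic minus wild-type on the log2(normalized reads + 1) scale. The median over the 36 genes was 0.32 against 0.02 over all genes tested, and 28 of the 36 values were positive against 51.3% of all genes. Both transgenic libraries lay above both wild-type libraries for 25 members, where 30.0% of all genes did so, and below them for 5, where 29.7% did. Wild-type 2 was lower than wild-type 1 for 23 of the 36, with a median difference of -0.10, and transgenic 2 was higher than transgenic 1 for 28, with a median of 0.16.

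These counts depended on single libraries and on the test. Without wild-type replicate 1 the members median was 0.34, and without wild-type replicate 2 it was 0.22. Without transgenic replicate 1 it was 0.31, and without transgenic replicate 2 it was 0.21. Each of these fits left 1 library in a group. The counts passing in them moved widely for members and for all genes alike, and their ranges are given at the end. On reads recovered from the values, edgeR called 2 higher and 1 lower, where 2.44% and 5.46% of all genes were called. DESeq2 called 11 and 2, where 7.67% and 9.45% were called. With quantile normalization 5 were higher and 2 lower, where 524 and 954 of the 16746 genes were called. With TMM scaling 4 were higher and 1 lower, where 422 and 967 of all genes were called.

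**Figure D1:**
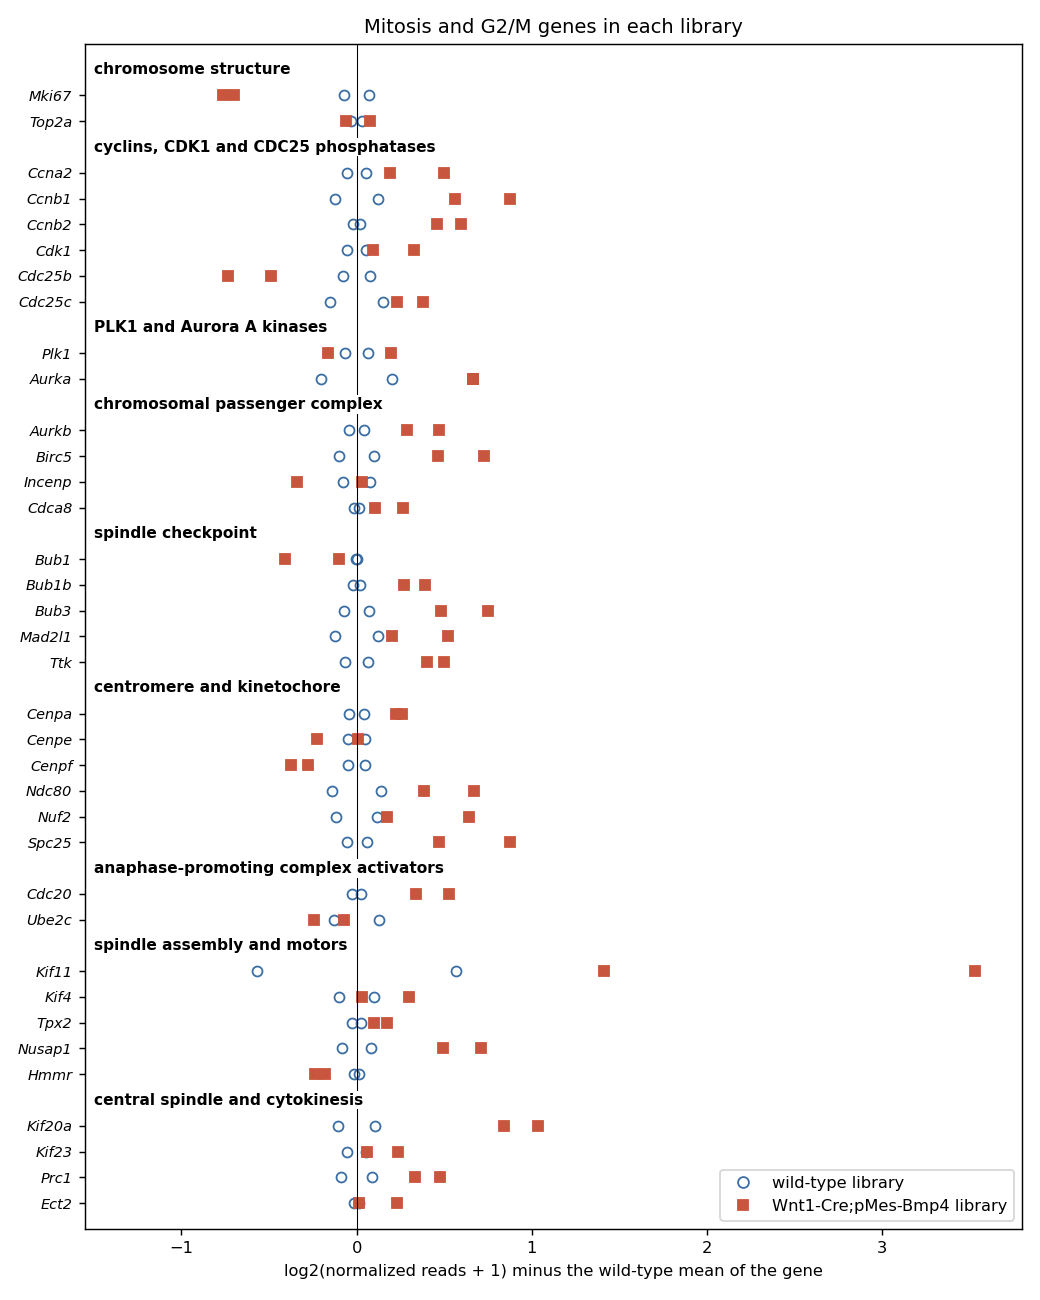
Each row is 1 gene, grouped by role; circles are the 2 wild-type and squares the 2 Wnt1-Cre;pMes-Bmp4 libraries, on the log2(normalized reads + 1) axis after subtracting the wild-type mean of the gene. Squares lie to the right of both circles in 25 rows and to the left in 5, among them Mki67.

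Libraries held between 29607541 and 47849092 reads assigned to genes, the most in wild-type 1. The 36 genes took 0.646% and 0.632% of normalized reads in wild-type 1 and 2 and 0.776% and 0.796% in transgenic 1 and 2. Summed markers of neural crest mesenchyme, 7 of 7 tested, read 16687 and 19544 normalized reads in wild-type and 24618 and 19443 in the transgenic libraries, and these overlapped. Summed red cell markers, 9 of 9 tested, read 674758 and 613958 against 341292 and 381298. Epithelial markers, 9 of 10 tested, read 25754 and 19480 against 34459 and 32376. Summed red cell markers were thus low and summed epithelial markers high in both transgenic libraries. Endothelial markers, 7 of 7 tested, read 3761 and 3608 against 4669 and 5021. Cranial mesoderm and muscle markers, 5 of 6 tested, read 2684 and 2493 against 3748 and 3671. Markers of cranial neurons, 7 of 8 tested, read 836.7 and 623.3 against 761.5 and 526.2. Summed levels did not overlap between the genotypes for red cells, which were lower, and for epithelium, endothelium and mesoderm, which were higher. Sums can hide single genes. Of the crest mesenchyme genes 5 of 7 had negative log2 fold changes, with a median of -0.33. After the correction for transcript length described further on, 4 of these 7 were positive, with a median of 0.08. Red cell genes were negative for 7 of 9 and positive for 2, with a median of -0.38. Values were positive for 7 of 9 epithelial, 5 of 7 endothelial and 4 of 5 mesoderm genes. The medians of these were 0.38, 0.49 and 0.56. Of the neuron genes 5 of 7 were negative, with a median of -0.28. No marker of these lists was at 0 in all libraries. The part of these cells in the mitosis genes was not tested.

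Promoters of mitosis genes are known for a pair of short elements, the cell cycle genes homology region, TTTGAA, and the CCAAT box bound by NF-Y. Promoter windows from RefSeq on GRCm38.p6 matched 30 of the 36 members, with 33 windows because some genes have more than 1 start; Aurkb, Ccna2, Cdc25c, Incenp, Kif20a and Tpx2 were not matched. Within 100 bases before to 50 after the start, on both strands, TTTGAA was found in 24 of 33 member windows and in 8.01% of 32851 windows of the same length. CCAAT was found in 25 of 33 and in 23.4%, and both together in 21 of 33 and in 1.93%. The variant TTTAAA was found in 6 of 33 and in 5.61%. Matches of different motifs may share bases, and a match is a description of letters, not a site. Members with TTTGAA in a window numbered 22, of which 4 were called higher and 1 lower, with a median log2 fold change of 0.23. The 8 without it held 2 called higher and 0 lower, with a median of 0.38.

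Windows are shown for 6 of the 7 members that rose, for Mki67, which fell, and for Cdk1 and Ube2c, which did not pass, so that the elements can be compared. Each runs 5′ to 3′ from 120 bases before to 40 after the annotated start, in lower case. Capitals mark the homology region, its variant and the CCAAT box, on either strand.
Ccnb1: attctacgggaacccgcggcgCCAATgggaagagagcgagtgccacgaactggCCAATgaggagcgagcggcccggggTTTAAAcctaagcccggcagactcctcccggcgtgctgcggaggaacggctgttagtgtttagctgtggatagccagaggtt
Ccnb2: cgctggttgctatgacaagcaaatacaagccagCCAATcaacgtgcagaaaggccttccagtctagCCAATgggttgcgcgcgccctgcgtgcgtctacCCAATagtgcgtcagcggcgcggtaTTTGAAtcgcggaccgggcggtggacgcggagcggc
Aurka: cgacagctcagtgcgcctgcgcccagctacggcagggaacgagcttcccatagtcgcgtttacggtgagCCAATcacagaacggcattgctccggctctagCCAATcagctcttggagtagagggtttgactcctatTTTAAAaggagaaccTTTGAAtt
Spc25: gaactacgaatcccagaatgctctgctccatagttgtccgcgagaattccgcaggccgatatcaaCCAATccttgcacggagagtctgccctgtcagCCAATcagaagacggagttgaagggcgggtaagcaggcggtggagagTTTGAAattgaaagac
Bub3: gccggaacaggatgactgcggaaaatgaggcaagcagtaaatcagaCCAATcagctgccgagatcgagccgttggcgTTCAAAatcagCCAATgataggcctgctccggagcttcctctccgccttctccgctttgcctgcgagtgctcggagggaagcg
Nusap1: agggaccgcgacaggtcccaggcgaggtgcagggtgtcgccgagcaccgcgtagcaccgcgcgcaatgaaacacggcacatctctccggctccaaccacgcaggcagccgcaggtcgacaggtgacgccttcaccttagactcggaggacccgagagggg
Mki67: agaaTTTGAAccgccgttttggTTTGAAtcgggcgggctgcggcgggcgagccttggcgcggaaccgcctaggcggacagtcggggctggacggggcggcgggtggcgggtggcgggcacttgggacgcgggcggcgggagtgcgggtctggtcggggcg
Cdk1: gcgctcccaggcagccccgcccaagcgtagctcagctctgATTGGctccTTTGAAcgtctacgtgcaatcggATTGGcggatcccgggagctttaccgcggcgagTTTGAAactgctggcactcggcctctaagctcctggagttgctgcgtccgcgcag
Ube2c: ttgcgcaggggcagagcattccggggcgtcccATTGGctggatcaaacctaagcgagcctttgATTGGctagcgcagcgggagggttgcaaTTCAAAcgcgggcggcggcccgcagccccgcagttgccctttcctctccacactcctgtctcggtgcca

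On GRCm38.p6 the windows are Ccnb1 chr13:100786447-100786606 on the minus strand, Ccnb2 chr9:70421515-70421674 on the minus strand, Aurka chr2:172370531-172370690 on the minus strand. The others are Spc25 chr2:69206174-69206333 on the minus strand, Bub3 chr7:131560250-131560409 on the plus strand, Nusap1 chr2:119618178-119618337 on the plus strand, Mki67 chr7:135716340-135716499 on the minus strand, Cdk1 chr10:69352873-69353032 on the minus strand, Ube2c chr2:164769809-164769968 on the plus strand. Ccnb2 held TTTGAA at position 5 after the start with CCAAT starting at -87, -54 and -21. Spc25 held TTTGAA at position 25, and Aurka held it at position 33. In Bub3 the element was on the other strand at -43 between CCAAT boxes at -74 and -32. Ccnb1 had TTTAAA at -42 with CCAAT at -99 and -67 and no TTTGAA. Mki67 had TTTGAA at -116 and -98, of which the former lies outside the window counted above. Nusap1 held none of these letters in the window, and it rose like Bub3, while Ube2c and Cdk1 held both elements and did not pass.

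Of the cyclins, CDK1 and the CDC25 phosphatases, 2 of 6 genes rose, both of them B-type cyclins. Ccnb1, the main mitotic cyclin, lies on chromosome 13 at 100778650 to 100786570 of GRCm38. It read 14472 and 12192 normalized reads in wild-type 1 and 2 and 19577 and 24404 in transgenic 1 and 2. Both transgenic libraries were high, and the groups did not overlap. The means were 13332 ± 1612 and 21991 ± 3413 (SD, n = 2 each), with a log2 difference of 0.72 ± 0.16 (SE) at an adjusted p of 0.0401 in limma. Ccnb2, its partner cyclin of the Golgi and cytoplasm, read 5237 and 5079 in wild-type against 7089 and 7806. The wild-type pair was tight, and both transgenic libraries stood above it, with a log2 difference of 0.53 ± 0.12 (SE) at an adjusted p of 0.0458 in limma. A processed pseudogene, Ccnb1-ps, was listed at 106.8 and 71.0 against 150.4 and 503.2, and reads shared between the copies could not be assigned with certainty.

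The other genes of this role did not pass. Cdk1, the kinase that cyclin B activates, read 20861 and 19372 in wild-type against 21469 and 25276, a log2 fold change of 0.21. Ccna2, the cyclin of S phase and early mitosis, had 0.35. Both lay above wild-type in each transgenic library, so the groups did not overlap, but the gap was narrow for Cdk1. The CDC25 phosphatases remove the inhibitory phosphates from CDK1, and their values had opposite signs. Cdc25b read 426.5 and 474.2 in wild-type against 269.8 and 320.1, with a log2 fold change of -0.61 and a limma adjusted p of 0.0909. Cdc25c had 0.30 and a limma adjusted p of 0.253. Cdc25b was low in every library, while Cdk1 was among the members with the most reads.

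Of the kinases PLK1 and Aurora A, 1 of 2 rose. Aurka, which matures centrosomes and builds the spindle, lies on chromosome 2 at 172356190 to 172370535. It read 5874 and 4428 in wild-type against 8082 and 8093, with a log2 difference of 0.67 ± 0.16 (SE) at an adjusted p of 0.0479 in limma. The transgenic libraries were nearly equal, and the spread lay between the wild-type libraries. Plk1, the polo kinase of mitotic entry and exit, read 5151 and 5650 against 6193 and 4815, and its groups overlapped. Its log2 fold change was 0.02 ± 0.15 (SE), and the sign turned to -0.093 with quantile normalization and -0.0067 with TMM scaling.

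In the chromosomal passenger complex, which corrects wrong attachments at the centromere and then directs cytokinesis, 0 of 4 genes passed in limma. At an unadjusted p under 0.05, 2 were higher, where 2246 of all 16746 genes were. Birc5, which encodes survivin, read 12513 and 10928 in wild-type against 16112 and 19363. The groups did not overlap, and the log2 difference of 0.59 ± 0.14 (SE) had a limma adjusted p of 0.05005, just over the threshold. Aurkb, the kinase of the complex, read 3399 and 3616 against 4849 and 4288, a log2 fold change of 0.38 with a limma adjusted p of 0.109. Cdca8, which encodes borealin, had 0.18, and Incenp, the scaffold that activates Aurora B, had -0.15 with groups that overlapped. The subunits of this complex thus had values from -0.15 to 0.59.

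Of the spindle checkpoint, 1 of 5 genes rose. Bub3, a WD repeat protein that brings BUB1 and BUBR1 to kinetochores, lies on chromosome 7 at 131560222 to 131571895. It read 14286 and 12958 in wild-type against 19003 and 22906, with a log2 difference of 0.62 ± 0.14 (SE) at an adjusted p of 0.0446 in limma. The groups did not overlap. The annotated locus of Fgfr2 on the other strand spans Bub3, and the strand setting of the counting is not given. Ttk, the MPS1 kinase at the head of the checkpoint, read 1643 and 1499 against 2072 and 2218, a log2 fold change of 0.45 with a limma adjusted p of 0.0817. Its partners differed among themselves. Bub1b, which encodes BUBR1, had 0.33 and Mad2l1, which holds CDC20 inactive, had 0.36. Bub1, the kinase that BUB3 recruits, had -0.26, with 3227 and 3235 in wild-type against 2431 and 3012, so both transgenic libraries were low.

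Centromere and kinetochore genes had values of both signs, and 1 of 6 rose. Spc25 belongs with Ndc80 and Nuf2 to the NDC80 complex, which grips microtubules. It lies on chromosome 2 at 69193895 to 69206194 and read 5885 and 5438 in wild-type against 7830 and 10383. The groups did not overlap, with a log2 difference of 0.67 ± 0.16 (SE) at an adjusted p of 0.0483 in limma. Ndc80 read 2589 and 2138 against 3076 and 3749, a log2 fold change of 0.53 with a limma adjusted p of 0.083. Nuf2 had 0.41 and Cenpa, the histone variant that marks the centromere, had 0.24. Each of these lay above wild-type in both transgenic libraries. The giant outer kinetochore proteins went the other way in value and did not pass. Cenpf read 9605 and 8964 against 7158 and 7665, a log2 fold change of -0.32, and the motor Cenpe had -0.11 with groups that overlapped.

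Of 2 genes whose products work with the anaphase-promoting complex, Cdc20 and Ube2c, 0 passed. At an unadjusted p under 0.05, 1 was higher, where 2246 of all 16746 genes were. Cdc20, the substrate receptor that the checkpoint restrains, read 9232 and 9564 in wild-type against 13520 and 11870. Both transgenic libraries stood above wild-type, with a log2 difference of 0.43 ± 0.13 (SE) at an adjusted p of 0.0774 in limma. Ube2c, the E2 enzyme that starts ubiquitin chains for this complex, read 18543 and 22188 against 19327 and 17157. Its groups overlapped, with a log2 difference of -0.16 ± 0.14 (SE).

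Of the genes for spindle assembly and motors, 1 of 5 rose. Nusap1, which bundles microtubules near chromosomes, lies on chromosome 2 at 119618298 to 119651244 and read 2793 and 2487 in wild-type against 3716 and 4316. The groups did not overlap, with a log2 difference of 0.60 ± 0.14 (SE) at an adjusted p of 0.0464 in limma. The activator of Aurora A, Tpx2, had 0.14, the chromokinesin Kif4 had 0.17 with groups that overlapped, and the hyaluronan receptor and spindle protein Hmmr had -0.21. Tpx2 lay above wild-type in both transgenic libraries and Hmmr lay below. Nusap1 was thus the only one of the 4 that passed.

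Kif11, the kinesin that pushes spindle poles apart, stood apart from every other member. It read 81.6 and 181.0 in wild-type against 325.3 and 1413, a log2 difference of 2.47 ± 0.66 (SE), short of the threshold at an adjusted p of 0.0611 in limma. The transgenic libraries differed from each other more than transgenic 1 differed from wild-type 2. Per kilobase it was the lowest member, at 27.2 normalized reads in wild-type. Ide, a close neighbour on chromosome 19, was at 0 in both wild-type libraries and transgenic 1 and at 2.42 in transgenic 2. Exoc6, further along, read 265.5 and 175.9 in wild-type against 257.0 and 346.8. Pseudogenes overlap the Kif11 locus by 946 and 406 bases in the annotation. Its adjusted p in limma was 0.0141 without the filter on low values and 0.280 with robust hyperparameters. The log2 difference was 3.53 without transgenic replicate 1 and 1.41 without transgenic replicate 2. Without Kif11 the median of the other 35 members was 0.30.

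Of the central spindle and cytokinesis genes, 1 of 4 rose, and it was the member with the smallest p. Kif20a, the kinesin MKLP2 that carries the passenger complex to the midzone, read 2845 and 2453 in wild-type against 4734 and 5420. Both transgenic libraries were far above wild-type. The means were 2649 ± 277 and 5077 ± 485 (SD, n = 2 each), 1.92-fold higher, with a log2 difference of 0.94 ± 0.14 (SE) at an adjusted p of 0.0229 in limma. Kif20a and Cdc23 lie on opposite strands and overlap by 2327 bases, so that their reads cannot be told apart there without strand. Cdc23, a subunit of the anaphase-promoting complex, rose by 0.64. In all, 11 members are overlapped by a protein-coding gene on the other strand. Prc1, which cross-links the antiparallel microtubules of the midzone, read 2871 and 2534 against 3399 and 3754, a log2 fold change of 0.40 with a limma adjusted p of 0.103. Kif23, the motor of centralspindlin, had 0.15 and Ect2, which activates RhoA at the furrow, had 0.12. All 4 of this role were above wild-type in both transgenic libraries.

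Of the genes for chromosome structure, 1 of 2 fell. Mki67, which encodes the Ki-67 coat of mitotic chromosomes, lies on chromosome 7 at 135689784 to 135716361. It read 5176 and 5700 in wild-type against 3204 and 3349. The groups did not overlap, and the means of 5438 ± 371 and 3276 ± 103 (SD, n = 2 each) gave a log2 difference of -0.73 ± 0.13 (SE) at an adjusted p of 0.0268 in limma, 1.66-fold lower. After the length correction Mki67 was at -0.12 (adjusted p of 0.601 in limma), and with GC content corrected as well at -0.15 (0.363), so the call was lost. Top2a, the topoisomerase that untangles sister chromatids, read 12100 and 11574 against 11368 and 12498. Its groups overlapped, with a log2 difference of 0.01 ± 0.12 (SE), and the value was -0.076 with quantile normalization and -0.014 with TMM scaling.

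Per kilobase of principal transcript, the members spanned a wide range of levels. In wild-type, Ube2c led at 21061 normalized reads per kilobase, ahead of Birc5 at 12377 and Cenpa at 6835. Bub3, Ccnb1 and Cdc20 followed at 6142, 5356 and 5242. In the transgenic libraries Bub3 was at 9447, Ccnb1 at 8835 and Cdc20 at 7080. Mki67 was near the bottom at 540.5 in wild-type and 325.6 in transgenic libraries, beside Ttk at 547.1 and Ect2 at 527.7. These neighbours in wild-type did not differ beyond the spread of the libraries. Kif4, Cdc25b and Kif11 were lowest at 243.6, 145.8 and 27.2. In transgenic libraries Birc5 reached 18730, close to Ube2c at 18865.

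**Figure D2:**
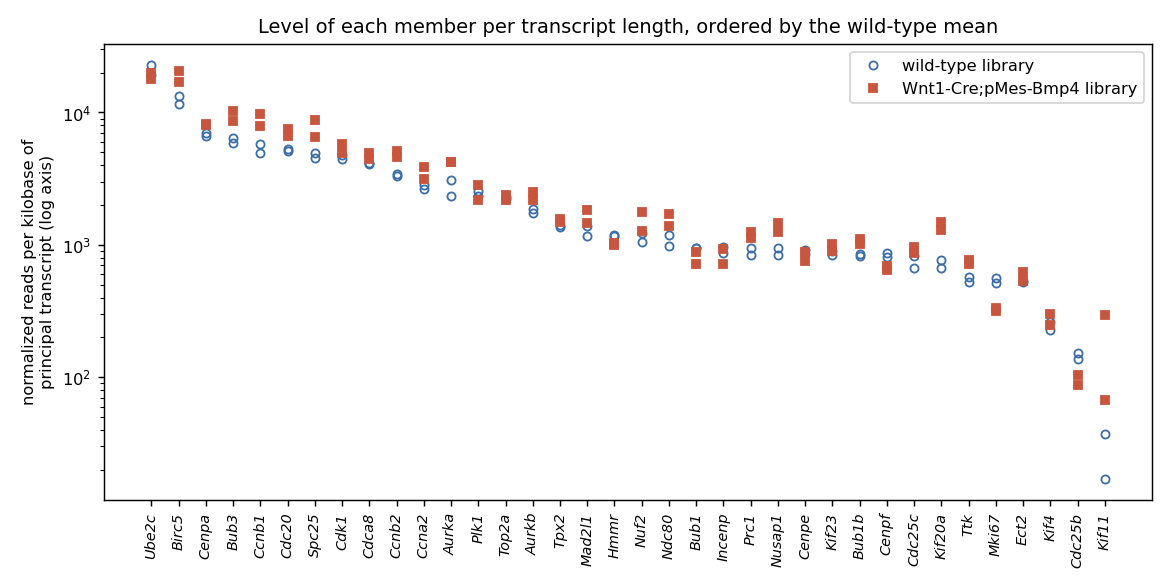
Normalized reads per kilobase of principal transcript (log axis) for each member in the 4 libraries, ordered by the wild-type mean; circles are wild-type and squares Wnt1-Cre;pMes-Bmp4 libraries. Levels run from 21061 for Ube2c to 27.2 for Kif11 in wild-type, and the 2 squares of Kif11 lie far apart.

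Transcript length moved with the fold change in these libraries, so the members were set beside genes of like length. The principal transcript is the one the annotation ranks highest for the coding product. Across the 36 members Spearman's rho between its length and the log2 fold change was -0.42, and across 16225 genes with a length it was -0.28; genes share the same libraries and are not independent. Among genes of 4240 bases and more, the median log2 fold change was -0.36, 0.888% passed as higher and 14.9% as lower. The 9 members in that bin had a median of 0.14, and 8 lay above the median of the bin. The exception was Mki67, with a transcript of 10061 bases. In the shortest bin, up to 1584 bases, the 5 members had a median of 0.53 against 0.14 for all genes there, and Ube2c was the 1 below. Between 1585 and 2732 bases the values were 0.42 for 10 members against 0.18, and between 2733 and 4239 bases 0.24 for 12 members against 0.05. In every bin the median of the members was thus above that of all genes, a description without a test.

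**Figure D3:**
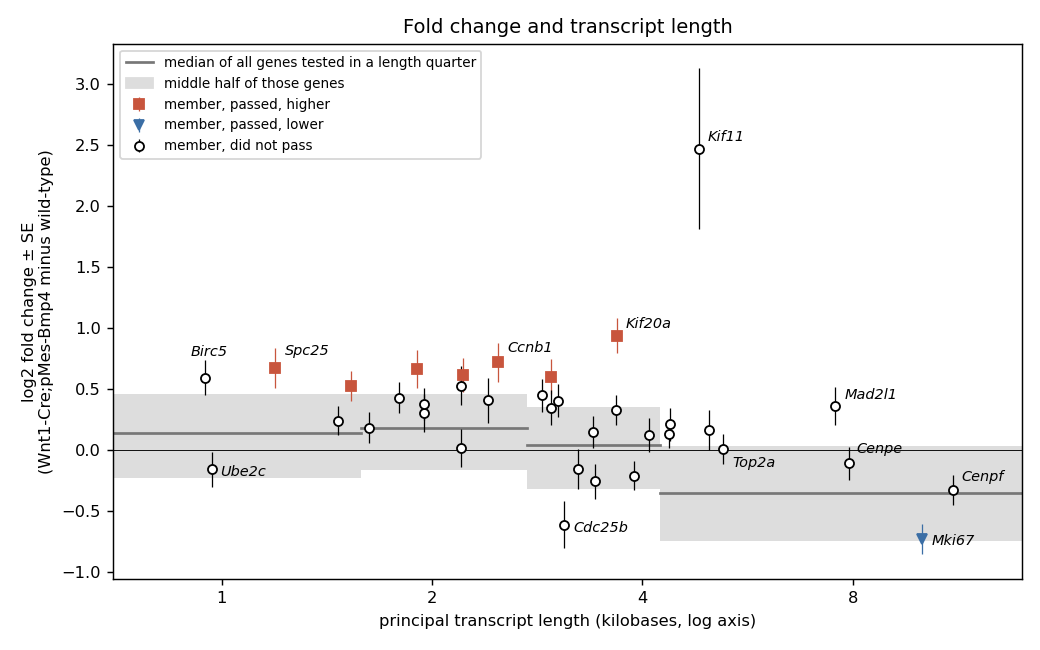
Log2 fold change ± SE against principal transcript length in kilobases (log axis) for the 36 members, with the median (grey line) and the range from the lower to the upper quartile (grey band) of all genes tested in 4 length bins. Members of 4240 bases and more scatter around 0.14 while the grey line there is at -0.36.

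A correction for transcript length was applied to each library, with the longest transcript of each gene. After it 1 of 36 members passed as higher and 0 as lower, where 0.659% and 0.998% of 16225 genes did. At an unadjusted p under 0.05, 14 members were higher and 1 was lower. Over all 16225 genes, 3851 were under that p in either direction. The 1 member that passed was Kif20a, at a log2 fold change of 0.90 and a limma adjusted p of 0.0465. The median of the members was 0.29 against 0.01 over all genes, and 29 of 36 values were positive. Spearman's rho of the log2 fold change with the longest transcript went from -0.33 to 0.24 across the 36 members. Across all 16225 genes it went from -0.28 to 0.04. The longest transcripts moved most. Mki67 went from -0.73 to -0.12 with a limma adjusted p of 0.601, Cenpf from -0.32 to 0.32 and Cenpe from -0.11 to 0.39. Mad2l1, with an annotated transcript of 7557 bases, went from 0.36 to 0.83. Ccnb1, Spc25, Aurka, Ccnb2 and Nusap1 lost part of their difference, and Bub3 did not. Ccnb1 went to 0.52, Spc25 to 0.46, Aurka to 0.45 and Ccnb2 to 0.32, at adjusted p values in limma of 0.124, 0.136, 0.141 and 0.173. Nusap1 went from 0.60 to 0.54 and Bub3 from 0.62 to 0.65, at adjusted p values in limma of 0.101 and 0.0813.

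With the principal transcript in place of the longest, a choice made after seeing the data, the count was again 1 higher and 0 lower, against 0.45% and 0.752% of all genes, with Kif20a at 0.97. Bub3, with a principal transcript of 2218 bases and a longest of 4015, had 0.42 there, with a limma adjusted p of 0.156. With the longest transcript again and GC content corrected as well, 3 members were higher and 1 was lower, against 3.98% and 4.58%. The 3 were Kif20a, Bub3 and Mad2l1 at 0.88, 0.61 and 0.74, at adjusted p values in limma of 0.0174, 0.0391 and 0.0254. The 1 that fell was Bub1 at -0.49 with a limma adjusted p of 0.0358. Plk1 had -0.19, Ube2c -0.36 and Cdc25b -0.75 after the length correction and did not pass. Which transcript of a gene the arch uses was not measured.

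**Figure D4:**
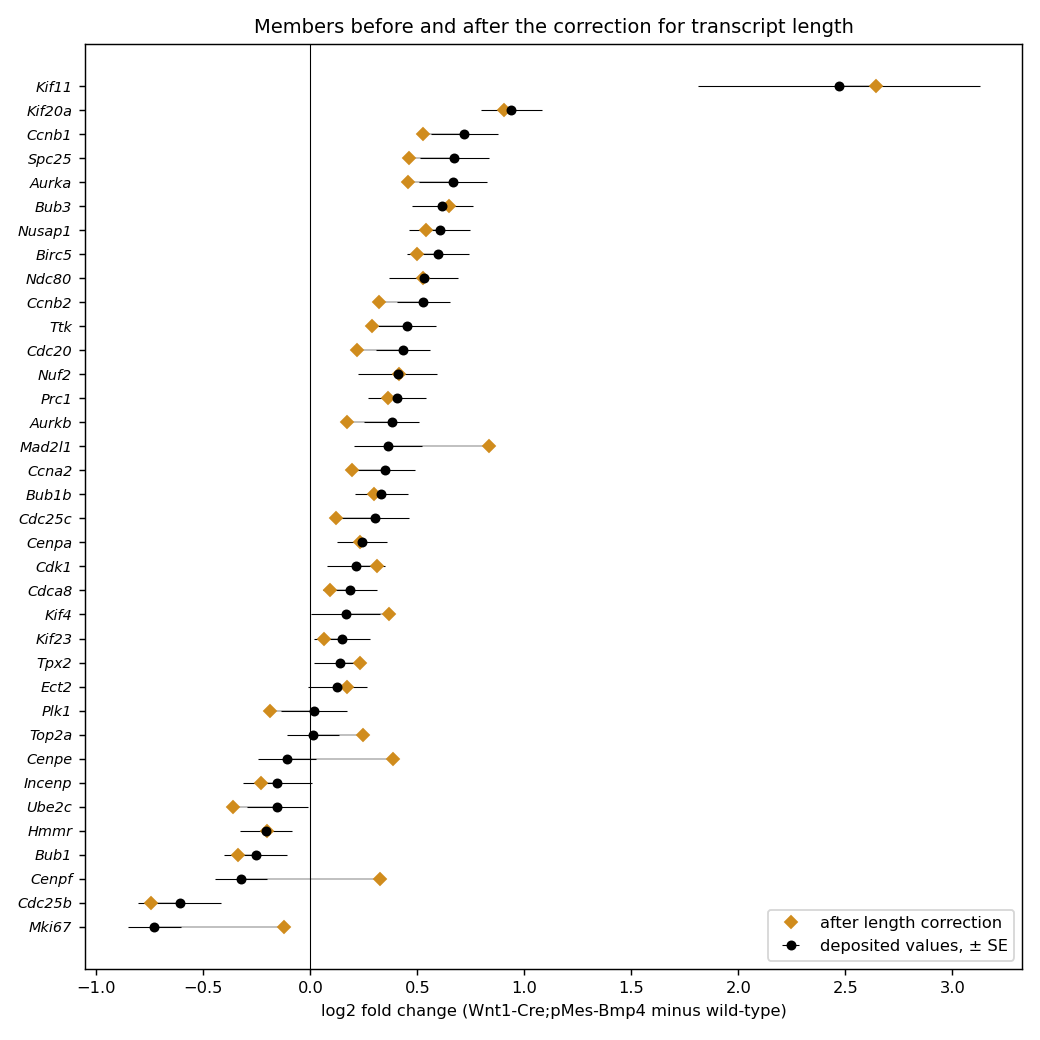
Log2 fold change of each member from the deposited values (black, ± SE) and after the correction for transcript length (orange diamonds), ordered by the former. Mki67, Cenpf and Cenpe move right by the most with Mad2l1, while Kif20a goes from 0.94 to 0.90.

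Other cell cycle genes were read from lists chosen by function. Of 72 further mitosis genes, 5 rose, 1 fell and 66 did not pass, where 2.97% and 5.28% of all genes were called, with a median log2 fold change of 0.18. After the length correction 0 of the 72 passed in limma in either direction. Those with the smallest p were Zw10, a checkpoint protein of the kinetochore, at 0.90, the microtubule depolymerase Kif2c at 0.65, the kinase Melk at 0.93 and cyclin F, Ccnf, at 0.58. Their limma adjusted p values were 0.0268, 0.0297, 0.0366 and 0.0404. With length and GC content both corrected, 8 of the 72 were higher and 1 was lower, against 3.98% and 4.58% of all genes. A list of 16 genes held subunits of the anaphase-promoting complex with Fzr1 and Ube2s, which are not subunits. Of these 16, 4 rose and 1 fell, against 2.97% and 5.28% of all genes, with a median of 0.13. Anapc5, Cdc16 and Cdc23 rose with 0.73, 0.68 and 0.64, and the large scaffold Anapc1 fell with -0.76, at adjusted p values in limma of 0.026, 0.0268, 0.0321 and 0.026. After the length correction 1 of the 16, Cdc23, passed as higher and 0 as lower, and Anapc1 went to -0.20. With GC content corrected as well, 4 of the 16 were higher and 0 lower, against 3.98% and 4.58% of all genes.

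Of 13 genes of MuvB, B-Myb, FoxM1 and DREAM, which are known to set the transcription of mitosis genes, 0 passed in limma. Their median was 0.11. At an unadjusted p under 0.05, 5 were higher and 1 lower, where 2246 and 2570 of all 16746 genes were. Foxm1, an activator of this wave, read 833.7 and 1019 in wild-type against 677.2 and 542.0. Both transgenic libraries were low, with a log2 difference of -0.60 ± 0.19 (SE) at an adjusted p of 0.0867 in limma. Rbbp4, the histone-binding subunit of MuvB and of several other complexes, had 0.47 with a limma adjusted p of 0.0755. Foxm1 thus had the opposite sign to the members' median.

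Of 19 cohesin and condensin genes 0 rose and 2 fell, where 2.97% and 5.28% of all genes were called. Their median was -0.15, and after the length correction it was 0.06, with 12 of the 19 values positive. Their median principal transcript had 4691 bases, and of all genes of 4240 bases and more 14.9% passed as lower. Rad21, the cohesin subunit that separase cuts, read 3280 and 3779 in wild-type against 1652 and 1746. The groups did not overlap, with a log2 difference of -1.05 ± 0.14 (SE) at an adjusted p of 0.0211 in limma, and after the length correction it was -1.03 with a limma adjusted p of 0.0356. Nipbl, the cohesin loader, fell with -0.81 and a limma adjusted p of 0.0233, and it had -0.23 after the correction.

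Of 13 regulators of the step from G1 to S, 2 rose and 3 fell, where 2.97% and 5.28% of all genes were called. Their median was -0.25. The cyclin D kinase gene Cdk6 fell with -1.38 and Ccnd1, which encodes cyclin D1, with -0.89, while Ccne2 and Cdk2, the pair that starts S phase, rose with 0.96 and 0.56. Their limma adjusted p values were 0.0211, 0.0321, 0.0348 and 0.0451. The other that fell was Ccnd2, which encodes cyclin D2. After the length correction 0 of the 13 passed as higher and 1, Ccnd1, as lower, so the calls of Cdk6, Ccnd2, Ccne2 and Cdk2 were lost there. With GC content corrected as well, 2 of the 13 were higher and 2 lower, against 3.98% and 4.58% of all genes. Ccnd1 read 3948 and 5061 in wild-type against 2677 and 2185, and it had -0.91 after the length correction, with a limma adjusted p of 0.0465. Of 12 tested genes that brake CDKs or mark cell cycle exit, with a median of 0.18, 2 rose and 0 fell. Over all genes 2.97% and 5.28% were called. The 2 that rose were the atypical cyclins Ccng2 and Ccng1, with 0.83 (adjusted p of 0.0454 in limma) and 0.62 (0.0498). Ccng2 alone passed after the length correction. The median of the 12 was then -0.009, with 6 values positive and 6 negative.

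**Figure D5:**
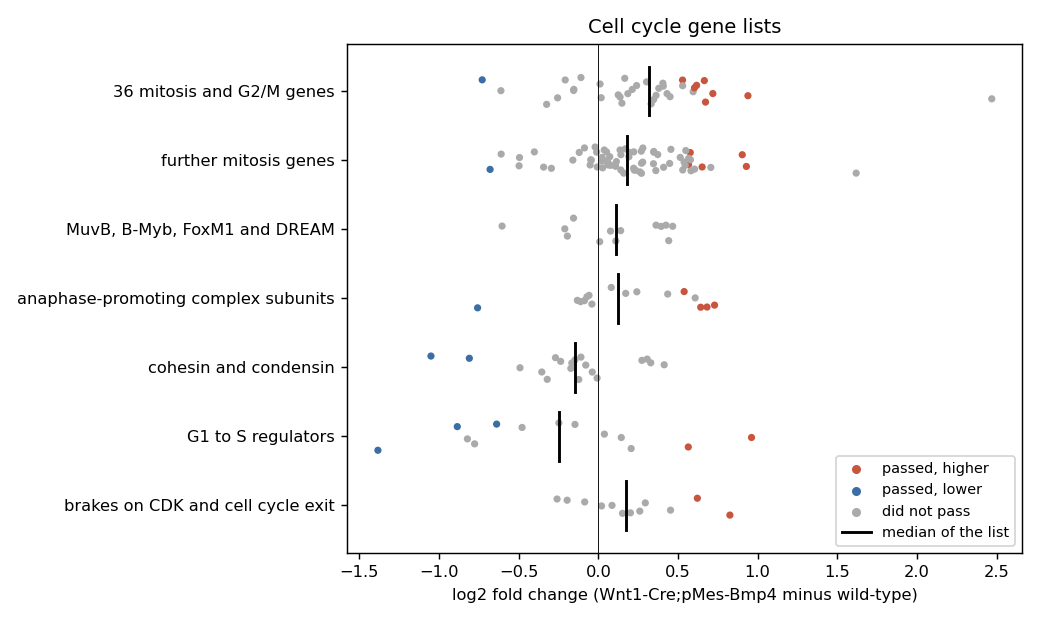
Log2 fold change of each gene in the 36 mitosis and G2/M genes and in 6 other cell cycle lists; colour shows whether the gene passed in limma, and black bars are medians. The bar of the 36 genes is at 0.32 and that of the G1 to S regulators at -0.25.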

How the data were processed

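Each genotype had 2 libraries, made from fragmented polyA RNA with random priming per the labels' protocols. What the authors deposited is a size-factor normalized signal, made from featureCounts output per the file headers. For trimming and build, the submitters' processing notes list fastp 0.21.0 and mm10. Which aligner, annotation release, strand option and normalization software were used is not given in the sources used here. Every value was a whole multiple of the least value above 0 in its column (100%, within 0.01), which gave back the reads, and the factors found equalled median-of-ratios factors. Totals were 47849092 and 33763574 reads for wild-type, 31404494 and 29607541 for transgenic libraries.

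Testing used limma 3.58.1 (R 4.3.3), with the prior variance following mean level, on log2 values after adding a pseudocount of 1, over the 16746 genes whose mean reached 10, two-sided, adjusted by Benjamini-Hochberg over all of them at 0.05. It had 2 residual and 5.26 prior degrees of freedom. An exact permutation test of 2 against 2 cannot go below 0.333. Members, lists and alternatives were chosen with earlier results of these data known. Values in full are given for members past the threshold and the 2 with the smallest p in each of 9 roles, and other lists name up to 4 genes past the threshold or the 2 with the smallest p; other members are named with their fold change only, which goes beyond that rule. Cenpf, Cdk1, Cdc25b and Bub1 were given by library after their values were seen. A further list of cell type markers is not reported here.

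Lengths, GC content and gene positions were read from GENCODE M21 (GRCm38, which mm10 also names); 96.9% of genes tested had a length. The length correction subtracted from each library a spline of its deviation from the gene mean on log2 length, with 4 degrees of freedom, fitted on genes whose mean reached 50. Alternatives used pseudocounts of 0.5 and 5, other filters, scalings and variance models, edgeR 4.0.16 and DESeq2 1.42.0 on the recovered reads, a replicate block and each library left out. With these reads, edgeR had 409 genes higher, 915 lower. On data simulated for this comparison, with 200 of 16746 genes changed, the test found 82.3% of genes set to 2-fold and 100% of those set to 4-fold, besides 7.67 false calls on average over 3 draws. That simulation gave every gene the same dispersion and no length trend, and changed only genes whose mean reached 50. Members that passed changed by less than 2-fold, so these figures need not hold for them or for these data. Plots used matplotlib 3.10.9 under Python 3.11.15.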

Additional observations from a re-analysis of the deposited data

How the results depend on the processing

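Of the 36 members 7 were called higher and 1 lower, and of all genes 498 and 884, with a members median of 0.32. With 1 library left out, the lone library of its group being assumed to vary like the other group, members higher ran from 0 to 15 and lower from 0 to 2, all genes higher from 0 to 2669 and lower from 0 to 2733, and the members median from 0.21 to 0.34. Without the trend in the prior variance no gene passed (members 0 and 0, all genes 0 and 0 in limma, with 9 members higher and 2 lower, and 3925 of all genes, at an unadjusted p under 0.05). Robust hyperparameters gave 809 genes higher. DESeq2 gave 11 and 2 members and 1284 and 1582 genes; edgeR gave 2 members higher. TMM scaling gave 4 members higher, and quantile normalization gave 2 lower and a members median of 0.21. The length correction gave 1 and 0 members and 107 and 162 genes; with the principal transcript, added after seeing the data, it gave 1 and 0 and 73 and 122. The length and GC correction gave 3 members higher and a median of 0.22. At an adjusted p under 0.1 there were 12 and 2 members and 1307 and 1726 genes.

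With the replicate number as a block, 2 members were higher and 0 lower, and 165 and 543 genes. Samples with the same number did not deviate together (correlation -0.15). With 2 libraries per group this cannot decide whether libraries were paired, and the labels do not say. The crossed pairing, added after seeing the data, gave 17 and 3 members and 1763 and 1952 genes.

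The length correction turned the sign of 3 members, Plk1, Cenpf (from -0.32 to 0.32) and Cenpe (from -0.11 to 0.39). Among the 18 members given in full, signs turned under some alternative for Top2a and Plk1. Top2a, 0.010, was -0.076 with quantile normalization, -0.014 with TMM scaling and -0.013 in edgeR, and ran from -0.058 to 0.079 with 1 library left out. Plk1, 0.017, was -0.093 with quantile normalization, -0.0067 with TMM scaling, -0.19 after the length correction, -0.10 after the length and GC correction and -0.18 with the principal transcript, and ran from -0.16 to 0.20 with 1 library left out.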
